A study of Mus musculus with 4 samples.

Results

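Macrophages are tissue phagocytes that take up debris, dead cells and microbes. Many organs hold a resident population that depends on the receptor Csf1r and its ligands, and monocytes from blood can add to it when a tissue is injured. In obstructed kidneys, macrophages of both origins are known to gather. Such cells are usually recognised by a small panel of genes. The 10 described here are Csf1r, Adgre1, Cd68, Mrc1, Cd163, Itgam, Lyz2, Tyrobp, Lgals3 and Mpeg1, and all 10 were found among the 19296 genes measured in mouse ureter. They were chosen by name as well-known macrophage markers, with earlier results of these data known. Each was read by 1 probe set that carried its symbol alone.

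RNA came from ureters of 4 male mice, whose strain is labelled 129Sv/C57BL6 mix, with 1 expression array for each animal. The 2 wild type mice (miR-143/145+/+) were 4.5 months old and their kidneys were normal. The 2 knockout mice (miR-143/145-/-), without the microRNA genes for miR-143 and miR-145 that smooth muscle expresses strongly, were 2.5 months old and had hydronephrosis, the widening of a kidney that holds back urine. Age, kidney state and genotype therefore cannot be told apart in any difference given here. The labels name neither the side nor the segment of ureter, nor how much surrounding fat was removed. Levels and differences are on the log2 scale of the deposited values, where a difference of 1 is a factor of 2, and differences are always knockout minus wild type.

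The deletion was seen on the arrays. Mir145a read 8.28 and 8.42 in the wild type mice, against 4.60 and 5.02 in knockout ureter, at least 3.42-fold lower, and Mir143 read 7.64 and 7.85 against 6.48 and 6.53, at least 2.24-fold lower. These bounds set wild type against a background level of 6.58, the 95th percentile of the means of 1024 olfactory receptor genes. The array medians lay between 7.81 and 7.89. Smooth muscle and urothelium, the main layers of a ureter, were present: all 12 smooth muscle markers and all 18 urothelial markers tested lay above background. All 10 macrophage genes lay above background on every array. Knockout replicate 1 stood apart in kidney tubule markers, whose list mean was 8.75 there, 7.01 in knockout replicate 2, and 6.87 and 7.50 in wild type. Without this mouse 1744 genes passed, or 9.04%, and the calls of named macrophage genes that this changed are given beside them.

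No gene of the macrophage panel passed the test between the ureters of mice with hydronephrosis and those of mice with normal kidneys. In the limma fit over all genes 0 of the 10 had an adjusted p under 0.05, and 0 had an unadjusted p under 0.05. With knockout replicate 1 left out, 0 of the 10 passed the adjusted threshold and 2, Lyz2 and Lgals3, had an unadjusted p under 0.05, as had 23.9% of all genes in that setting. Csf1r and Lyz2 had one with centred arrays, where the share of all genes was 31.3%, Csf1r with a further quantile normalization or an intensity trend, and Lgals3 with a replicate block. Over all genes 2.38% passed, 1.90% as higher and 0.477% as lower, and 26.5% had an unadjusted p under 0.05, 12.7% as higher and 13.8% as lower. The 459 genes that passed were 367 higher and 92 lower, a split that became 309 higher and 317 lower when each array was centred on its median. By direction alone, 4 of the 10 read higher and 6 lower. The median difference of the panel was -0.07, beside -0.02 over all genes, and the median size of a difference was 0.19 both in the panel and over all genes. The mean of the 10 genes was 8.74 and 8.79 in the wild type mice, against 8.74 and 8.70 in knockout ureter.

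The width of the intervals sets how much this says. The standard errors ran from 0.11 to 0.19, so a panel gene would have needed a difference of 0.58 to 0.97 to pass. The 95% intervals of all 10 differences included 0, and together they reached from -0.83 to 0.75, or from 0.56-fold to 1.68-fold. A 2-fold change of any panel gene in either direction thus lay outside its interval, while a difference smaller than the size needed could not be called with 2 mice per genotype. In whole tissue, fewer macrophages and less RNA per macrophage cannot be told apart.

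**Figure D1:**
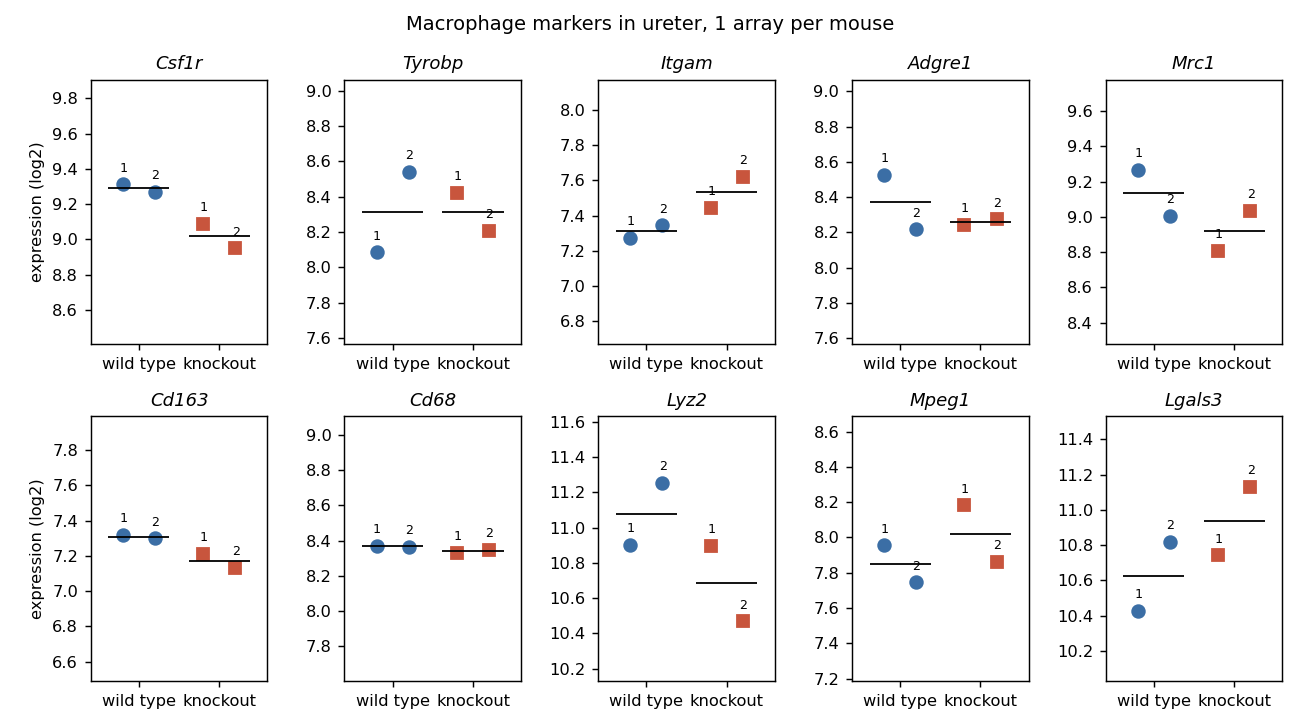
Log2 expression of the 10 macrophage genes (vertical axes, each 1.5 log2 units tall) in 2 wild type mice (blue circles) and 2 knockout mice (red squares); numbers are the replicates and black lines the genotype means. The wild type and knockout points overlap for Tyrobp, Adgre1, Mrc1, Mpeg1 and Lgals3, and those of Cd68 span 0.04 in all.

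The plot of values by mouse shows the 4 readings of each gene. The genotypes did not overlap for 5 of the 10 genes, where the share over all genes was 60.0%. In 4 of these 5 both knockout mice read lower (32.0% of all genes) and in 1 both read higher (28.0% of all genes).

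The genes of the panel lie on 9 chromosomes. Macrophages need PU.1, the transcription factor encoded by Spi1, which binds near many of their genes. A PU.1 site commonly holds the letters AGGAAGT or at least the core GGAAGT. RefSeq promoter windows (GRCm38.p6, from 250 bases before to 50 bases after the start) were at hand for 7 of the 10 genes. AGGAAGT was found on either strand in 2 of these 7 and in 9.35% of all 32851 windows. The shorter GGAAGT, which AGGAAGT contains, was found in 3 of the 7, those of Mrc1, Lyz2 and Cd68, and in 23.8% of all windows. Both full matches lie on the strand opposite to the gene and upstream of its start, and are shown in capitals as they read on the strand of the gene, because Mrc1 and Lyz2 are the panel genes in whose windows the longer motif appears. The Mrc1 stretch is chr2:14229173-14229238 on the plus strand, with its match starting 211 bases before the gene start. The Lyz2 stretch is chr10:117282337-117282402 on the minus strand, with its match starting 100 bases before.
Mrc1: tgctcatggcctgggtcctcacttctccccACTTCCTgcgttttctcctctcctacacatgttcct
Lyz2: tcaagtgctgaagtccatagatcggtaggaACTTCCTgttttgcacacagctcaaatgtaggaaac

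Spi1 itself read 7.72 and 7.81 in the wild type mice, against 7.81 and 7.78 in knockout ureter, a difference of 0.03 (SE 0.11). A match of letters describes the sequence only.

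Csf1r, the receptor for the growth factors Csf1 and Il34 on which macrophages depend, had the smallest p of the panel. It read 9.31 and 9.27 in the wild type mice, against 9.09 and 8.95 in knockout ureter, so both knockout mice lay below both wild type mice. The difference was -0.27 (SE 0.12, 95% interval -0.55 to 0.01), or 0.83-fold, with an adjusted p of 0.197. It is also the 1 panel gene on the chromosome of the deleted cluster, with 23 annotated genes, 7 of them protein-coding, between it and Mir145a in assembly GRCm38.p6. Of the 5 protein-coding genes between them that were tested, 3 read higher, 2 read lower and 0 passed. Their differences ran from -0.59 for Ppargc1b (adjusted p = 0.199) to 0.50 for Slc26a2 (adjusted p = 0.0658), both larger in size than that of Csf1r. Whether a strain difference carried along with the deletion contributes to Csf1r was not tested.

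Tyrobp encodes DAP12, an adaptor that passes signals from activating receptors on myeloid cells. Its values were 8.09 and 8.54 in the wild type mice, against 8.42 and 8.21 in knockout ureter. The wild type mice lay 0.46 apart and enclosed both knockout mice, and the genotype difference was 0.00 (SE 0.17, 95% interval -0.41 to 0.41). Its sign turned when the arrays were centred on their medians or quantile normalized again, and without wild type replicate 1 (-0.23) or knockout replicate 1 (-0.11).

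Itgam, the alpha chain of complement receptor 3, is carried by macrophages, monocytes and neutrophils. It read 7.28 and 7.35 in the wild type mice, against 7.44 and 7.62 in knockout ureter. This was the 1 panel gene for which both knockout mice lay above both wild type mice, with a difference of 0.22 (SE 0.12, 95% interval -0.07 to 0.51, adjusted p = 0.288). A further 2 probe sets list Itgam together with another gene, and those were not used.

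Among the surface markers of resident cells, Adgre1 encodes an adhesion receptor whose antigen is the usual stain for mouse macrophages. It read 8.53 and 8.22 in the wild type mice, against 8.24 and 8.28 in knockout ureter. The knockout mice lay between the wild type mice, which differed by 0.31 from each other, more than the genotypes did (-0.11, SE 0.14, 95% interval -0.44 to 0.22).

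Mrc1 encodes the mannose receptor CD206, which is found on many resident macrophages and also on lymphatic endothelium. Its values were 9.27 and 9.01 in the wild type mice, against 8.81 and 9.03 in knockout ureter. Knockout replicate 2 lay just above wild type replicate 2, and the difference of -0.22 (SE 0.14, 95% interval -0.56 to 0.12) had an adjusted p of 0.372. The lymphatic endothelium list, with 7 of its 8 genes tested and 6 above background, had a mean of 7.71 and 7.86 in the wild type mice, against 7.998 and 8.07 in knockout ureter. Of its genes 3 were higher at an unadjusted p under 0.05, as were 12.7% of all genes, and 0 passed. Lyve1, 1 of the 3, is also in the list of resident macrophage surface genes (difference 0.47, SE 0.15, adjusted p = 0.119). Stab2 is in both the lymphatic list and that of alternative activation. The defining factor of lymphatic endothelium, Prox1, stayed below background on all 4 arrays. The part of lymphatic vessels in the Mrc1 values was not tested.

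Cd163 is the scavenger receptor for complexes of haemoglobin and haptoglobin. It measured 7.32 and 7.30 in the wild type mice, against 7.21 and 7.13 in knockout ureter. Both knockout mice lay lower, by a difference of -0.14 (SE 0.11, 95% interval -0.41 to 0.13, adjusted p = 0.468).

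The remaining genes act inside the cell or are secreted. Cd68, a glycoprotein of lysosomal membranes, read 8.37 and 8.36 in the wild type mice, against 8.33 and 8.35 in knockout ureter. Its 4 values lay within 0.04 of each other, the narrowest range of the panel, and although the genotypes did not overlap the difference was -0.03 (95% interval -0.29 to 0.24). Mpeg1, perforin-2, which makes pores in engulfed bacteria, read 7.96 and 7.75 against 8.18 and 7.86. The genotypes overlapped, and the difference was 0.17 (SE 0.15, 95% interval -0.19 to 0.53).

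Lyz2 and Lgals3 had the largest differences of the panel, in opposite directions, and also the largest standard errors. Lyz2 encodes the lysozyme of macrophages and neutrophils. It read 10.90 and 11.26 in the wild type mice, against 10.90 and 10.47 in knockout ureter, so that wild type replicate 1 and knockout replicate 1 were alike and the other mouse of each genotype stood apart. The difference was -0.39 (SE 0.19, 95% interval -0.83 to 0.04, adjusted p = 0.225). It was -0.57 without wild type replicate 1, -0.22 without wild type replicate 2, -0.61 without knockout replicate 1 (adjusted p = 0.0645) and -0.18 without knockout replicate 2.

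Lyz1, a close copy of Lyz2 that lies beside it, had a probe set of its own. It read 8.78 and 9.30 in the wild type mice, against 8.98 and 8.56 in knockout ureter, so wild type replicate 2 was again the highest and knockout replicate 2 the lowest. Its difference was -0.27 (SE 0.21, adjusted p = 0.442). Because the copies are so alike, one probe set may also bind transcript of the other, and their 2 readings do not count as independent.

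Lgals3 encodes galectin-3, a sugar-binding protein of macrophages that epithelial cells make too. It read 10.43 and 10.82 in the wild type mice, against 10.74 and 11.13 in knockout ureter, with wild type replicate 2 above knockout replicate 1. The difference was 0.31 (SE 0.18, 95% interval -0.12 to 0.75, adjusted p = 0.316). Beside it, the mean of the urothelial list was 11.02 and 11.33 in the wild type mice, against 11.62 and 11.99 in knockout ureter, and all 18 urothelial markers read higher. The part of urothelium in the Lgals3 values was not tested.

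**Figure D2:**
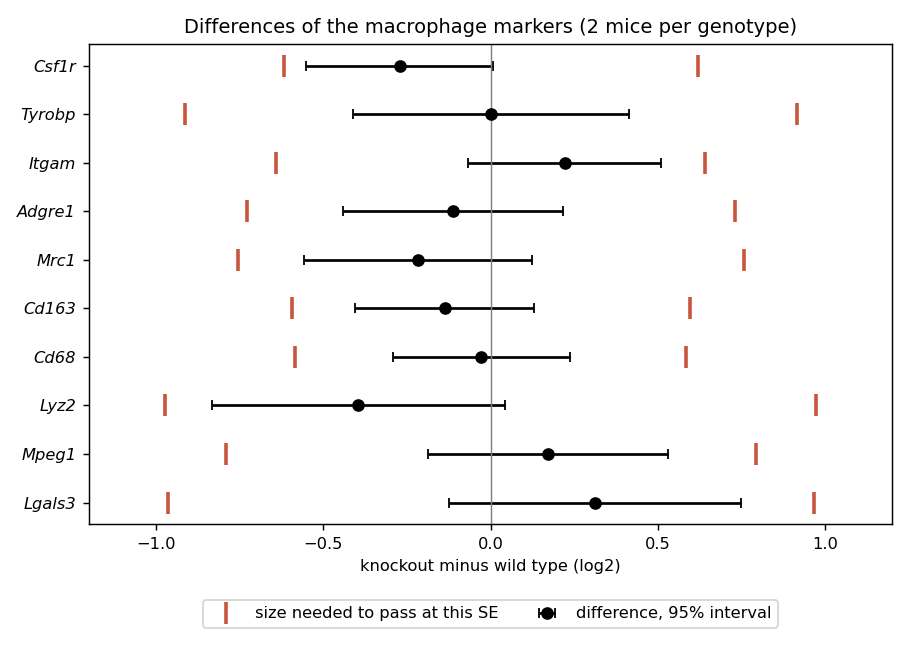
Knockout minus wild type difference of each macrophage gene (points, log2) with its 95% interval (bars) from the limma fit, and the size a difference would have needed to pass at that standard error (red ticks). Every interval includes 0 and every point lies inside its ticks, which sit between 0.58 and 0.97.

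The plot of differences sets each interval against the size needed to pass. For 6 of the 10 genes, 2 mice of the same genotype lay farther apart than the genotype means did. Over the 13 alternative treatments of the data, 0 of the 10 genes passed. In the alternatives that kept all 4 mice their adjusted p-values ran from 0.103 to 0.998. With no pooling of the variance, or without either wild type mouse, no gene on the arrays was called, so those settings could not have called a panel gene.

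The wider biology of macrophages was read from 6 lists of 123 genes, 113 of which were tested and 93 lay above background in at least 1 genotype. In these lists 3 genes passed, or 2.65%, beside 2.38% of all genes. The median size of a difference was 0.17.

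Growth factors and lineage transcription factors held 17 tested genes, of which 7 read higher and 10 lower, with a median of -0.11. At an unadjusted p under 0.05, 3 of the 17 were higher and 4 lower, beside 26.5% of all genes in either direction. At the adjusted threshold 0 rose and 1 fell. The 1 that passed was Cebpa, which fell from 11.31 and 11.31 in wild type to 10.59 and 10.15 in knockout ureter (difference -0.94, SE 0.16, adjusted p = 0.0428). This factor serves both myeloid cells and fat cells. Beside it, the adipocyte list read lower for all 12 of its tested genes, with means of 12.77 and 12.64 in the wild type mice, against 12.44 and 11.93 in knockout ureter, and its part in the Cebpa value was not tested. Runx1, a factor of blood cells that is also active in some epithelia, differed by 0.83 (adjusted p = 0.0581), and Cebpb, a factor of inflammatory genes in myeloid and other cells, by -0.53 (adjusted p = 0.0759). Both passed without knockout replicate 1, Runx1 at 1.04 (adjusted p = 0.00427) and Cebpb at -0.65 (0.0294), and with a replicate block (0.0115 and 0.0416), and Runx1 passed with robust eBayes (0.0405). The ligands of Csf1r, singled out after their values were seen, gave -0.19 for Csf1 (SE 0.12) and -0.11 for Il34 (SE 0.13). The call of Cebpa was lost when the arrays were quantile normalized again (adjusted p = 0.0532). It was also lost with no pooling of the variance (0.373) and without either wild type mouse, settings in which every gene lost its call.

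Surface and scavenger genes of resident macrophages held 23 tested genes, of which 2 rose, 0 fell and 21 did not pass, with a median of -0.10. At an unadjusted p under 0.05, 4 of the 23 were higher and 4 lower, beside 26.5% of all genes in either direction. The 2 that passed are made by other cells too. Gas6, a ligand that bridges dying cells to the phagocyte receptors Mertk and Axl, is also made by mesenchymal and vascular cells. It rose from 10.44 and 10.61 to 11.17 and 11.28 (difference 0.71, SE 0.12, adjusted p = 0.0448). Cbr2, a carbonyl reductase found in several tissues and in some resident macrophages, rose from 10.96 and 11.06 to 11.64 and 11.96 (difference 0.79, SE 0.14, adjusted p = 0.0479). Cd209f, a lectin of the DC-SIGN family, differed by -0.71 (adjusted p = 0.0677). It passed without knockout replicate 1 (-0.81, adjusted p = 0.0214), with a replicate block (0.0336), with centred arrays (0.0496) and with robust eBayes (0.0490). Quantile normalizing again ended the calls of Gas6 and Cbr2 (adjusted p = 0.0614 and 0.0570), as did leaving out knockout replicate 2. Both calls also ended with no pooling of the variance (0.361 and 0.369) and without either wild type mouse, settings in which every gene lost its call. Of 12 fibroblast markers 3 passed as higher, beside 1.90% of all genes. They were Lum (adjusted p = 0.0147), Col1a1 (0.0416) and Col1a2 (0.0454). The list means were 9.88 and 9.99 in the wild type mice, against 10.34 and 10.47 in knockout ureter. The part of fibroblasts in the Gas6 and Cbr2 values was not tested.

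Phagocyte receptors and their signalling partners held 25 tested genes, 14 read higher and 11 lower, and 0 passed. Their median was 0.02, and 3 had an unadjusted p under 0.05 (1 higher, 2 lower), beside 26.5% of all genes. Of the 25, 19 lay above background in at least 1 genotype, and not all of the 3 did. Lcp1, an actin-bundling protein of blood cells, differed by 0.43 (adjusted p = 0.135), and passed without knockout replicate 1 (0.63, adjusted p = 0.0354). Trem2, a lipid-sensing receptor that signals through Tyrobp, read 7.98 and 8.32 in the wild type mice, against 7.80 and 7.81 in knockout ureter, a difference of -0.34 (SE 0.14, adjusted p = 0.181). Tlr2, a receptor for bacterial lipoproteins, differed by 0.23. The partners of panel genes were again singled out after their values were seen. Itgb2, which pairs with Itgam, differed by 0.04, and the Fc receptor gamma chain Fcer1g, an adaptor like Tyrobp, by -0.07.

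Lysosomal and oxidative burst genes held 18 tested genes, 8 higher and 10 lower, and 0 passed. Their median was -0.04, and 4 had an unadjusted p under 0.05 (2 higher, 2 lower), beside 26.5% of all genes. Ctsz, a cysteine protease, read 11.62 and 11.65 in the wild type mice, against 11.12 and 11.04 in knockout ureter, a difference of -0.55 (SE 0.11, adjusted p = 0.0565). Lgmn, a protease that trims antigens and other proteases, differed by 0.42 (adjusted p = 0.0844). Cybb, the catalytic subunit of the phagocyte oxidase, differed by -0.33 (adjusted p = 0.137). Of these, Ctsz passed with 5 of the alternatives, which are a replicate block (adjusted p = 0.0328), dim genes left out (0.0480), centred arrays (0.0483), robust eBayes (0.0425) and knockout replicate 1 left out (0.0457).

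Genes of recruited monocytes and inflammation were read in both directions. Of 16 tested, 7 read higher, 9 lower and 0 passed. Their median was -0.10, and 4 had an unadjusted p under 0.05 (2 higher, 2 lower), beside 26.5% of all genes. Plac8, a marker of blood monocytes, had wild type readings below background; the knockout mean was at least 1.24-fold above them, with an adjusted p of 0.107. Ptgs2, the inducible cyclooxygenase, differed by 0.71 (SE 0.25, adjusted p = 0.135), and passed without knockout replicate 2 (0.99, adjusted p = 0.0339). Hp, the haptoglobin that Cd163 clears when it is bound to haemoglobin, and which fat cells also secrete, differed by -0.71 (adjusted p = 0.160). It passed without knockout replicate 1 (-1.16, adjusted p = 0.00186) and with a replicate block (0.0442). Ccr2, the receptor that draws monocytes into tissue, was singled out after its values were seen and read 7.49 and 7.56 in the wild type mice, against 7.58 and 7.58 in knockout ureter.

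Alternative activation, the state linked to repair and to type 2 cytokines, was represented by 14 tested genes with 5 higher, 9 lower and 0 past the threshold. Their median was -0.19, and 3 had an unadjusted p under 0.05, all of them lower, beside 13.8% of all genes as lower. Of the 14, 10 lay above background in at least 1 genotype, and not all of the 3 did. Retnla, a secreted protein of such macrophages that fat tissue also makes, read 10.55 and 10.80 in the wild type mice, against 10.21 and 10.21 in knockout ureter, a difference of -0.46 (SE 0.13, adjusted p = 0.0921). Igf1, a growth factor of many cells, differed by -0.40 (adjusted p = 0.158) and the chemokine Ccl17 by -0.28 (adjusted p = 0.197).

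**Figure D3:**
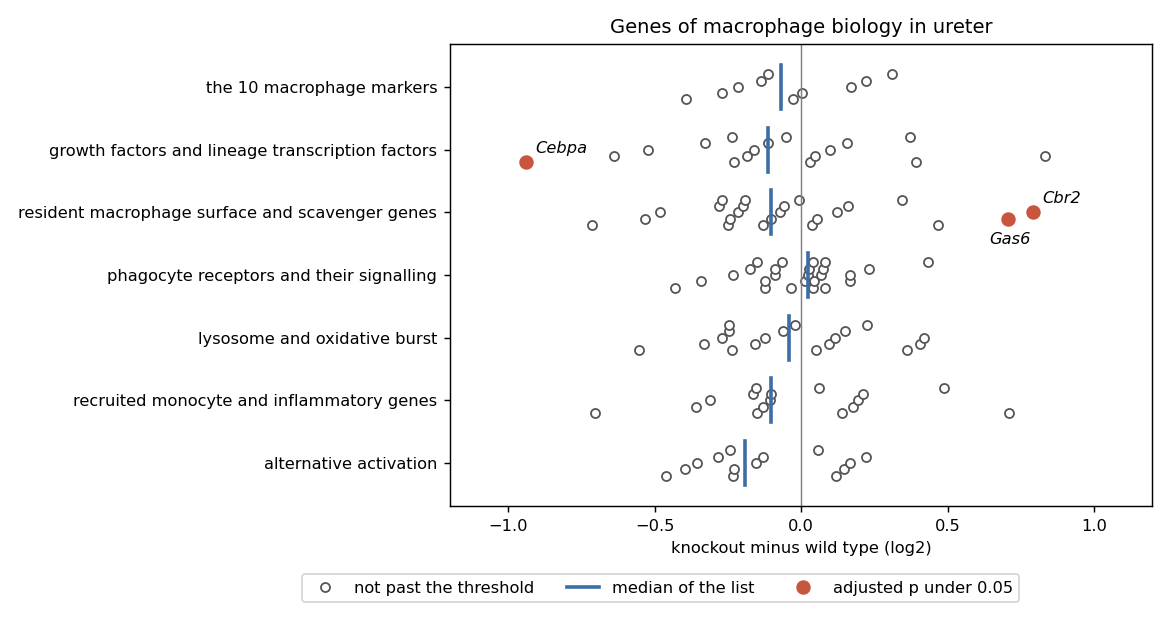
Knockout minus wild type difference (horizontal axis, log2) of each tested gene in the macrophage panel and in 6 lists of macrophage biology; filled red points passed an adjusted p of 0.05 and blue bars are list medians. Only Cebpa, Gas6 and Cbr2 passed, and the medians lie between -0.19 and 0.02; vertical scatter within a list has no meaning.

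Over the 4 arrays, the genes above background whose pattern lay nearest to that of Csf1r were Bach1, Iba57 and Ncan, at a root mean square distance of 0.01 on the log2 scale each, once every gene was set to its own mean. With 4 arrays this describes likeness only.

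The plot of marker lists by mouse sets the macrophage panel beside the other cells of the samples. Neutrophils share Itgam and Lyz2 with macrophages, and 2 of 11 tested neutrophil markers lay above background. The mean of that list was 5.77 and 5.97 in the wild type mice, against 5.55 and 5.59 in knockout ureter. In it 0 genes passed and 6 of the 11 were lower at an unadjusted p under 0.05, as were 13.8% of all genes. Of those 6, only Elane lay above background, so the count rests mostly on readings at background. The dendritic cell list had means of 7.14 and 7.19 against 7.05 and 7.06, with 0 genes past the threshold. Of its 9 tested genes 2 were lower at an unadjusted p under 0.05, beside 13.8% of all genes, and not both lay above background. For mast cells the means were 7.10 and 7.03 against 6.87 and 6.70, with 0 past the threshold. Here 3 of 8 were lower at an unadjusted p under 0.05, beside 13.8% of all genes. In the lymphocyte list 7 of 13 tested genes lay above background. Of the 13, 12 read lower, 6 of them at an unadjusted p under 0.05 (13.8% of all genes), not all of these above background. The list mean was 6.77 and 7.02 against 6.46 and 6.21. The 1 that fell was Ighm, the heavy chain of immunoglobulin M (difference -1.22, adjusted p = 0.0399), a call lost with the mean of its probe sets (0.0999). It was also lost with no pooling of the variance (0.374) and without either wild type mouse, settings in which every gene lost its call. Jchain, which joins immunoglobulin chains and was singled out after its values were seen, differed by -2.54 (SE 0.63, adjusted p = 0.0749). It read 10.47 and 10.72 in the wild type mice, against 9.21 and 6.90 in knockout ureter, so the knockout mice lay far apart. Blood endothelium had means of 10.34 and 10.46 against 10.40 and 10.15, and smooth muscle had 11.03 and 10.93 against 11.30 and 11.14. The part of these cells in the macrophage values was not tested.

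**Figure D4:**
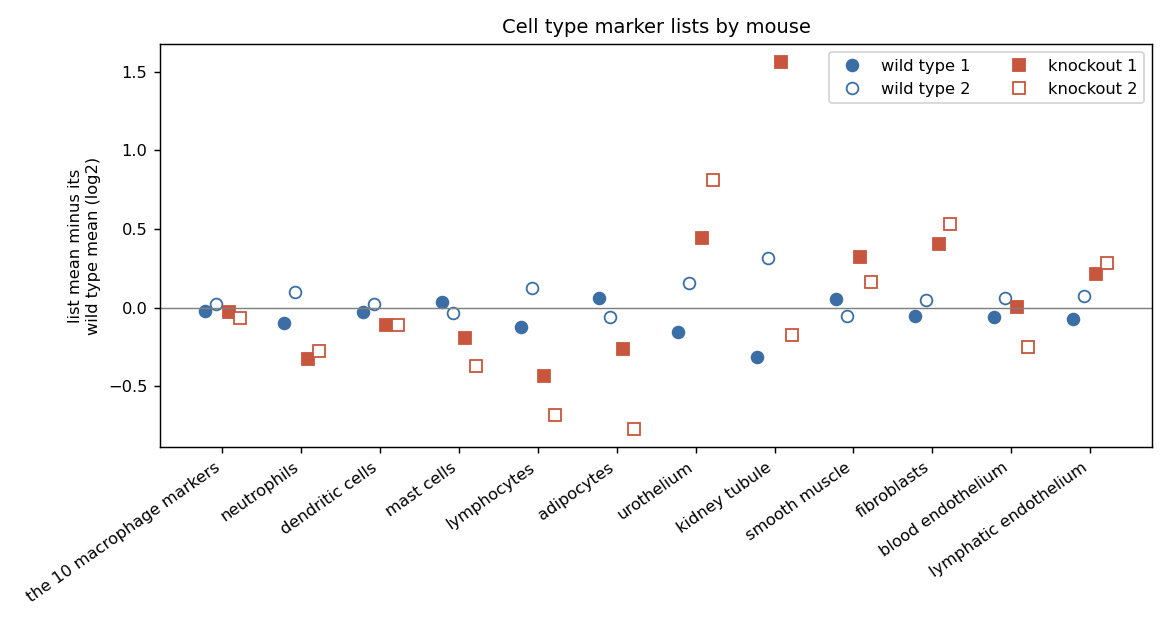
Mean log2 value of each marker list in each mouse, minus the mean of the 2 wild type mice (vertical axis); circles are wild type, squares knockout, filled symbols replicate 1 and open symbols replicate 2. The macrophage panel, with means from 8.70 to 8.79 over the 4 mice, lies close to 0, while the kidney tubule list is high in knockout replicate 1.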

How the data were processed

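The authors deposited a log2 expression value for each probe set on each array, made with RMA per the submitters' processing notes, which also name limma 3.12.1 and R 2.15.0. Each labelling used 500 ng of total RNA per the labels' protocols. The sources used here name no genome build for the probe sets. RMA makes the distributions of arrays alike, which can shrink a change shared by most genes. Of 23309 probe sets, 20728 had 1 gene symbol, 1174 several and 1407 none; the brightest with 1 symbol was taken, giving 19296 genes. Knockout was compared with wild type in limma 3.58.1 (R 4.3.3; lmFit, eBayes), adjusted by Benjamini-Hochberg over all genes, and checked on simulated data. Intervals are moderated, at 95%. The labels call the mice biological replicates; 2 per genotype limit the precision, and no counting depth exists. The deviations of same-numbered mice from their genotype means had a correlation of -0.03 across all genes. That value cannot tell whether smaller sets of genes varied together by replicate number.

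The genes and lists were chosen with earlier results of these data known. Beyond the panel, genes named are the 3 of smallest p above background in each macrophage list and the 1 in each other list. Those of the other lists are Elane, Cd209a, Cma1, Ighm, Adipoq, Cldn8, Cubn, Myocd, Lum, Kdr and Pdpn. Of these, Ighm, Lum, Cldn8 (difference 1.00, adjusted p = 0.0386) and Myocd (1.01, 0.0208) passed. Also named are Mir143, Mir145a and Lyz1, the 3 most like Csf1r, and those stated as singled out afterwards. Spi1, Prox1, Col1a1, Col1a2, Lyve1, Stab2, Slc26a2 and Ppargc1b were likewise chosen after their values were seen. Alternatives were other scalings, other variance models, means of probe sets, dim genes left out, replicate number as a block, and each mouse left out. Protein sequences were not used here.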

Additional observations from a re-analysis of the deposited data

How the results depend on the processing

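The count of 0 macrophage panel genes past the threshold was the same under all 13 alternatives. With no pooling of the variance, or with either wild type mouse left out, no gene on the arrays was called. Those settings could not have called a panel gene and say nothing about the panel. Of 130 values of panel genes under alternatives, 125 kept direction and side of the threshold and 5 turned sign. Those were Tyrobp with a further quantile normalization (-0.12), with centred arrays (-0.078), without wild type replicate 1 (-0.23) and without knockout replicate 1 (-0.11), and Adgre1 without wild type replicate 1 (0.043). With 1 mouse left out, Tyrobp ranged from -0.23 to 0.23 and Adgre1 from -0.27 to 0.043. The panel median of -0.07 became -0.13 with a further quantile normalization and -0.15 with centred arrays, where the median of all genes moved from -0.02 to -0.10; leaving out 1 mouse gave -0.10 to -0.055. The 5 panel genes that did not overlap became 6 to 9 with 1 mouse left out, where 1 array stands for a genotype and 78.2% to 82.1% of all genes did not overlap, and 7 with centred arrays (63.0% of all genes).

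Over all genes 459 passed, 367 higher and 92 lower. A replicate block gave 1922, a further quantile normalization 204, robust eBayes 902, no pooling of the variance 0, and leaving out 1 mouse 0 to 1744 (0 without either wild type mouse, 1744 without knockout replicate 1); centred arrays gave 309 higher and 317 lower. Of the 2 genes called among resident macrophage genes, a block made 4, and further quantile normalization and no pooling 0; 1 mouse left out gave 0 to 5. Of the 1 among growth and lineage factors, the block made 3, robust eBayes 2, and further quantile normalization and no pooling 0; 1 mouse left out gave 0 to 4. The lysosomal list went from 0 to 1 with the block, dim genes left out, centred arrays or robust eBayes, and 0 to 1 over mice left out; the recruited monocyte list went to 1 with the block and 0 to 1 over mice left out, as did the phagocyte list over mice left out. Of 416 values of other named genes, 353 kept their side of the threshold, 34 lost a call, 29 gained one and 0 turned sign. The losses with no pooling of the variance and without either wild type mouse fell on every called gene. The block changed no call of a panel gene. The causes were not tested. All 10 panel genes lay above background on every array.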
